A study of Mus musculus with 22 samples.

Results

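The genes described here take methyl groups off lysine 36 of histone H3 (H3K36) or bind the methylated lysine. They were chosen by symbol, and all 10 were present among the 22592 gene symbols in each of the 4 deposited tables, which hold 22 RNA-seq libraries of mouse oocytes and embryos made by the Smart-seq2 protocol. The 5 demethylases are Kdm2a, Kdm2b, Kdm4a, Kdm4b and Kdm4c, and the 5 readers are Zmynd11, Morf4l1, Psip1, Phf1 and Phf19. The series asks how histone marks depend on one another in oocytes that lack Setd2 or Dnmt3l, and whether altered transcription passes into embryos from Setd2-deficient eggs.

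Maternal Setd2 knockout (KO, from Setd2_KO females) was set against control (Setd2_Con) at 3 stages that share 1 table, with 2 libraries in each group. These were full-grown oocytes (FGO), zygotes taken 30 h after hCG, and embryos titled 48 h, for which the protocol lists late 2-cell collection at 47 h. The 48 h knockout libraries are titled 1-cell and the 48 h control libraries 2-cell, so genotype and cell stage cannot be told apart there. Females at these stages were 8 weeks old and had been given PMSG, followed by hCG for zygotes and embryos. FGO were taken 48 h after PMSG, and the labels used here give neither the alleles of the controls nor what drives the deletion. Growing oocytes of postnatal day 7 (P7), 20 to 30 µm across, were labelled Setd2-/- or Setd2+/-, with 2 libraries each, so that the controls carry 1 mutant allele. Spindle-transfer (ST) 8-cell embryos labelled Setd2-/- or Setd2+/-, also with 2 libraries each, came from reconstructed eggs in which the spindle-chromosome complex had been exchanged between Setd2mNull and control oocytes before sperm injection. The labels do not say whether their genotype refers to the spindle or to the cytoplasm. Females for the ST embryos were 8 weeks old and were given 5 IU PMSG and 5 IU hCG, 48 h apart. Sperm injection was listed at 15 min after transfer. A library labelled Dnmt3l_KO and one labelled Dnmt3l_Con, both from FGO of females 8 weeks old, have no replicate. Nothing in the labels says that replicates came from separate animals, so p-values measure the spread between libraries, which may be technical.

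As background, SETD2 writes trimethylation of H3K36 over the bodies of transcribed genes, and the mark is then read by proteins with PWWP, chromo or Tudor domains. KDM2 enzymes remove the lower methylation states and KDM4 enzymes the trimethylated one, together with methylation of H3K9. The mark is abundant in growing oocytes, where it guides DNA methylation. The egg then carries a stock of RNA into the zygote, most of which is cleared by the 2-cell stage, when the embryo's own genome is broadly activated.

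The files hold no read counts. The steps between low FPKM values put the depth of a library at about 5390000 to 6090000 fragments in P7 oocytes, 9460000 to 23200000 in FGO and 8380000 to 10400000 in the Dnmt3l pair. Embryo libraries were in part shallower, with about 3080000 to 3430000 fragments in zygotes, 3360000 to 4830000 in the 48 h groups and 6080000 to 7690000 in the ST groups. Setd2 itself had 0.968 and 0.927 FPKM (fragments per kilobase of transcript, scaled to the library's total) in knockout FGO, against 4.75 and 4.35 in control FGO. Its levels were 1.30 and 1.73 FPKM in knockout zygotes against 12.1 and 8.85 in control zygotes, and 1.42 and 1.74 in knockout embryos at 48 h against 53.2 and 43.0 in control embryos. P7 oocytes labelled Setd2-/- had 3.67 and 3.21 FPKM against 4.33 and 6.68 in those labelled Setd2+/-, and ST embryos labelled Setd2-/- had 15.4 and 18.1 against 18.2 and 17.1. The groups overlapped in the ST embryos only. In the Dnmt3l pair, Dnmt3l stood at 25.0 FPKM in the library labelled knockout and 31.7 FPKM in the control library, so its level does not bear out the label. All 9 oocyte markers examined reached a mean of 1 FPKM in every oocyte, zygote and 48 h group and 4 of 9 did in ST embryos. Of 8 markers of the 8-cell stage and the first lineages, 7 reached a mean of 1 FPKM in ST embryos of either label.

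In the controls, Kdm2a, Kdm2b, Kdm4a, Morf4l1, Psip1 and Phf1 rose between oocyte and zygote. By the 2-cell stage Kdm2b, Zmynd11, Psip1, Phf1 and Phf19 fell, whereas Kdm4c and Morf4l1 rose. Thus 6 of the 10 genes were higher in control zygotes than in control FGO and none was lower, where 42.5% of 12199 genes tested were called in either direction, 18.5% as higher and 24.0% as lower. Between control 2-cell embryos and control zygotes 2 were higher and 5 lower, where 76.1% of all genes were called, 33.4% as higher and 42.7% as lower. Calls are from limma on log2(FPKM + 1) at an adjusted p below 0.05 over all genes of a comparison. A gene was tested when at least 2 libraries reached 1 FPKM, and in these 12 libraries Kdm4c met this only through control 2-cell embryos and Phf19 only through control zygotes. Their calls in comparisons that hold those groups were favoured by the filter and are counted here as a description. The median of all genes moved by -0.06 at the first step and by -0.34 at the second. The 10 genes had median changes of 1.105 and -0.91 at these steps. For 10 of 10 genes the groups did not overlap at either step, as was the case for 72.8% and 86.7% of all genes.

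Between maternal Setd2 knockout and control, 2 of the 10 genes were called at each stage where both genotypes are titled alike. In FGO, Morf4l1 rose and Zmynd11 fell in the knockout, which is 2 of 10 where 6.92% of all genes were called, 2.02% as higher and 4.89% as lower. In zygotes, Morf4l1 rose and Phf19 fell, again 2 of 10, where 31.6% of all genes were called, 18.5% as higher and 13.1% as lower. The 9 oocyte markers examined summed to 8847 and 11926 FPKM in the 2 knockout zygote libraries, against 6313 and 6699 in the controls (lower library first), and one of them, Zp3, had 1103 and 2534 FPKM in the knockout against 166 and 159 in the control. Their part in the zygote changes was not tested. At 48 h Kdm2b, Zmynd11, Psip1 and Phf1 rose and Kdm4c fell in 1-cell knockout embryos relative to 2-cell controls, which is 5 of 10 where 73.8% of all genes were called, 43.2% as higher and 30.6% as lower. Phf19 in zygotes and Kdm4c at 48 h met the filter on low values only through the control group, the higher one. These calls were favoured by the filter and are counted as a description. The median of all genes stood at -0.19 in FGO, 0.01 in zygotes and 0.43 at 48 h. The median of the 10 genes was -0.26, -0.25 and 0.40. Knockout and control libraries did not overlap for 8 of the 10 genes in FGO, 5 in zygotes and 8 at 48 h, and for 65.1%, 60.7% and 87.2% of all genes at these stages. An exact permutation test over 4 libraries cannot give a p under 0.33, so every call rests on variance that limma shares between genes. The 3 knockout comparisons and the 2 control steps use the same control libraries.

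Ordered by the mean of the 6 groups, control zygotes ranked highest for 7 of the 10 genes, control 2-cell embryos for Kdm4c and Morf4l1, and knockout zygotes for Kdm4b. Control and knockout zygotes, neighbours in that order, overlapped for Kdm2a, Kdm2b, Kdm4a and Psip1. For Phf1, control zygotes, knockout zygotes and knockout 48 h embryos stood one below the other with no overlap between neighbours, and the oocyte groups after them overlapped. For Kdm4b all neighbours overlapped except the last pair, 48 h controls and control zygotes.

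**Figure D1:**
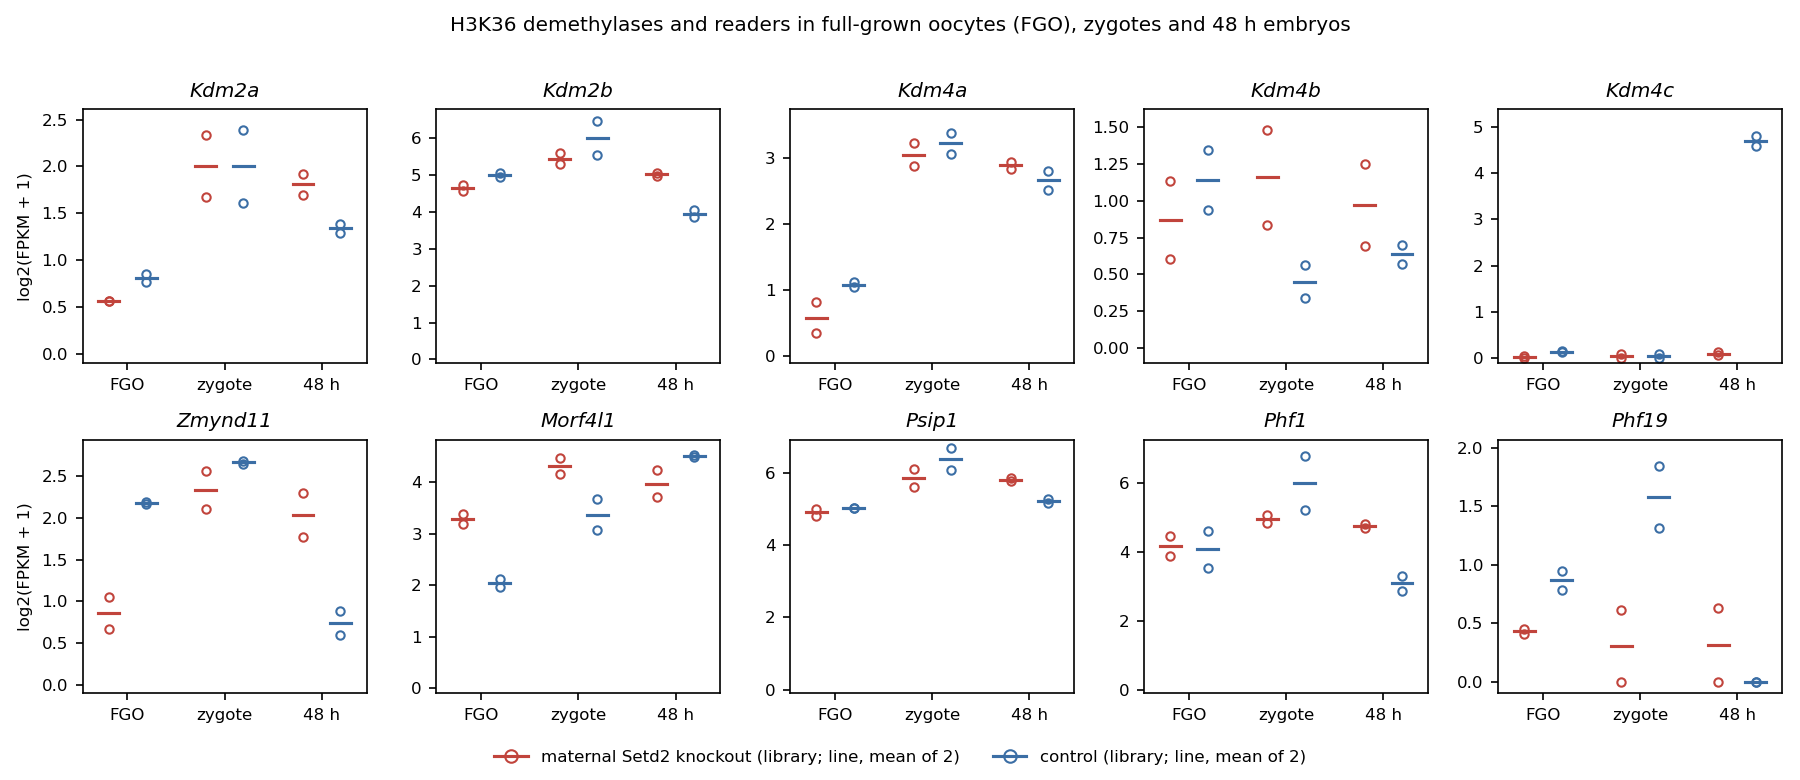
Level of each gene as log2(FPKM + 1) in full-grown oocytes, zygotes and 48 h embryos, with a circle for each library and a line for the mean of 2. Kdm4c was near 0 in all libraries except the control 2-cell embryos, and Morf4l1 had its knockout libraries above its control libraries in oocytes and zygotes and below them at 48 h.

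**Figure D2:**
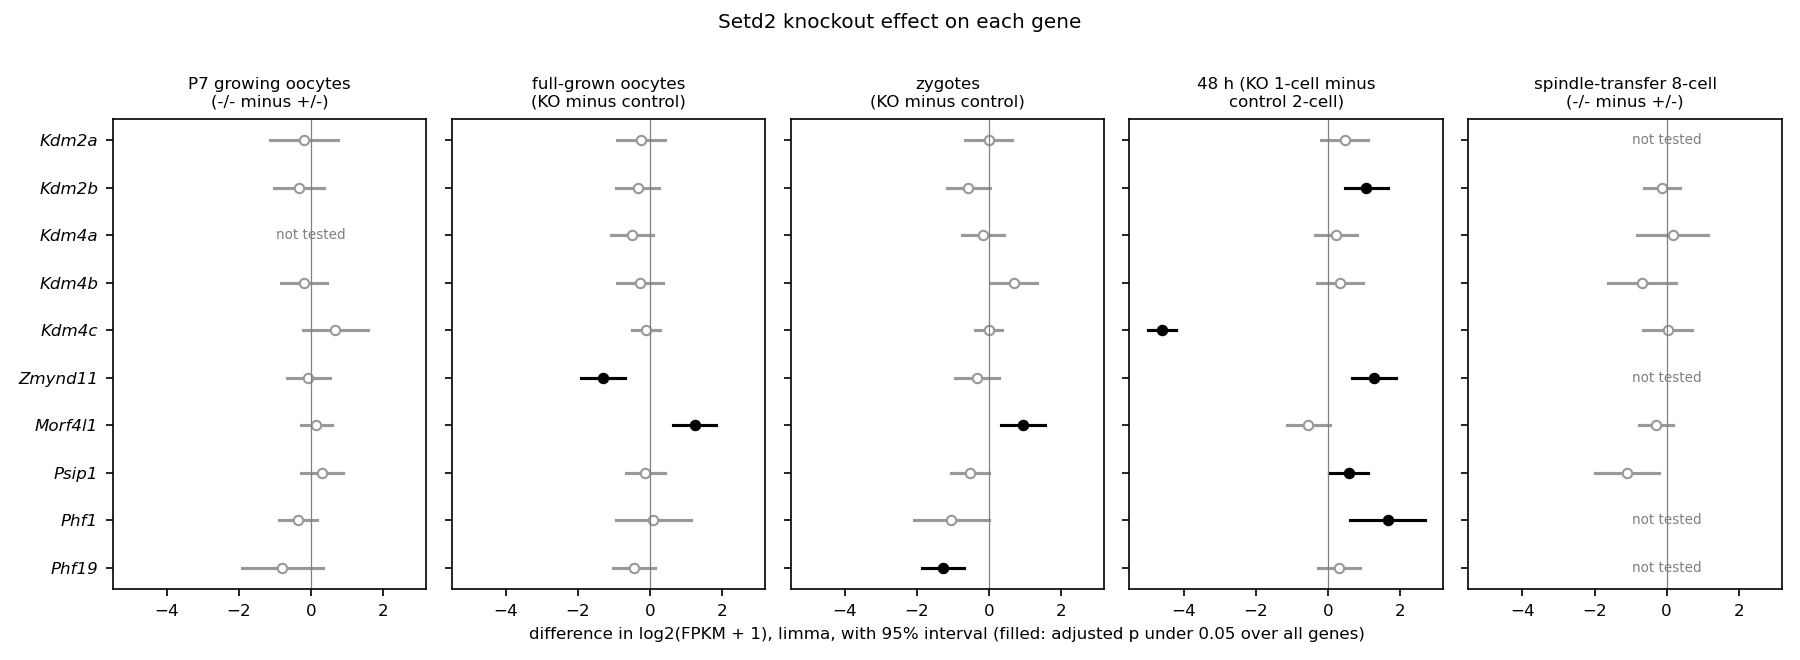
Difference in log2(FPKM + 1), knockout minus control (or -/- minus +/-), for each gene in 5 comparisons, with the 95% interval from limma. Filled points passed an adjusted p of 0.05 over all genes, which no gene did in P7 oocytes or spindle-transfer embryos.

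Sequence at the start sites is shown for Kdm4c and Phf1, whose group means had the widest range, and for Morf4l1, the gene that the knockout raised in both oocytes and zygotes. RefSeq promoter windows of 300 bases (GRCm38.p6) matched 7 of the 10 symbols, all except Kdm2a, Kdm4b and Psip1. They were searched on both strands for GGATTA, which reads TAATCC on the other strand, the core bound by OTX and OBOX homeodomain proteins, for AGGTCA, which reads TGACCT there, the half-site of nuclear receptors such as NR5A2, and for CCAAT, which reads ATTGG there, bound by NF-Y. Of 32851 promoter windows, 7.06% hold GGATTA, 16.3% AGGTCA and 37.4% CCAAT. Kdm4c has 2 annotated starts on the plus strand, and whole-gene FPKM does not tell which is used. Capitals mark the motifs.
Kdm4c, first start, chr4:74242247-74242546: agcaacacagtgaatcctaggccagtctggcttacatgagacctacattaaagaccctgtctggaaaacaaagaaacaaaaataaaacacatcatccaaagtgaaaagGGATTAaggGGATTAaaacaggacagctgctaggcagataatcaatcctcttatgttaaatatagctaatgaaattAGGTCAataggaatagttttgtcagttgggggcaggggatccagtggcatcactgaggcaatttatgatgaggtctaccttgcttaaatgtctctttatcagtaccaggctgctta
Kdm4c, second start, chr4:74251629-74251928: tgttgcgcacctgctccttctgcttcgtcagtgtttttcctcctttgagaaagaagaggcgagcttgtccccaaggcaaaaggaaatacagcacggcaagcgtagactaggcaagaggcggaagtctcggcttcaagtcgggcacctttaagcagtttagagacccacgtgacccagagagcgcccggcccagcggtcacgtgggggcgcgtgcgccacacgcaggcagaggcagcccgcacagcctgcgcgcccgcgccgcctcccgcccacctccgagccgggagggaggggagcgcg
Morf4l1, minus strand, chr9:90114771-90115070: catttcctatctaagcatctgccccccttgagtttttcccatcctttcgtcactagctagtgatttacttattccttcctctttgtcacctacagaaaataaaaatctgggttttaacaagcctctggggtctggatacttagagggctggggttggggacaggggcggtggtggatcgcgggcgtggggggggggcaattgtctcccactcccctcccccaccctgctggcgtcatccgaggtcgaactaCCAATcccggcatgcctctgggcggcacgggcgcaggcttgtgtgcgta
Phf1, plus strand, chr17:26932877-26933176: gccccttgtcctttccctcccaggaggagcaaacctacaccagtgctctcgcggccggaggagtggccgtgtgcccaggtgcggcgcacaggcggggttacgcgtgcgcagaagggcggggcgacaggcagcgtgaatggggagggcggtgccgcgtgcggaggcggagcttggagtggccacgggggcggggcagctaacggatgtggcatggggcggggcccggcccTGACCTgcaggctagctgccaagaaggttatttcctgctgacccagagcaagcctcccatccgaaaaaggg
The first Kdm4c window holds GGATTA at 2 places and AGGTCA at 1, with 0 CG dinucleotides, and the second holds none of the motifs and 28 CG dinucleotides, more than 85.8% of all windows. The median window holds 7 CG. Morf4l1 has 1 CCAAT and 13 CG, and Phf1 has 1 AGGTCA and 24 CG. These matches describe letters and not binding.

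Among the demethylases, Kdm4c showed the sharpest contrast between groups. KDM4C is a KDM4-family eraser of H3K9 and H3K36 trimethylation that in mouse embryonic stem cells occupies promoters rich in H3K4 trimethylation. In FGO it had 0.0125 and 0.0361 FPKM in the knockout, against 0.11 and 0.0953 in the control. Zygotes held 0 and 0.0695 FPKM in the knockout and 0 and 0.0728 in the control. At 48 h it had 0.0484 and 0.0946 FPKM in knockout embryos, against 23.1 and 26.7 in control embryos. The knockout values at 48 h correspond to about 1 and 2 fragments and the control values to about 325 and 428. Kdm4c was thus at or near the limit of detection in every FGO and zygote library and in both 1-cell knockout libraries at 48 h, and well above it in both control 2-cell libraries. The difference at 48 h was -4.59 ± 0.17 (SE, n = 2 each) on the log2(FPKM + 1) scale and -5.02 against the all-gene median. The step from control zygotes to control 2-cell embryos was 4.64 ± 0.17 and shares the control embryos with that comparison. Kdm4c met the filter on low values only through the 2 control 2-cell libraries, so both values are given as a description; with no such filter the limma adjusted p was 1.5e-07 at 48 h and 1.34e-07 for the control step. The log scale with a pseudocount of 1 understates both. When either control library at 48 h was left out, Kdm4c no longer met that filter. An antisense transcript, A230083N12Rik, overlaps the gene.

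Kdm2b, the CpG-binding subunit that brings a variant PRC1 Polycomb complex to CpG islands, was the most highly expressed demethylase at all 3 stages in both genotypes apart from the control 2-cell embryos, where Kdm4c was higher. Oocytes had 22.9 and 25.6 FPKM in the knockout, against 32.1 and 29.8 in the control. Zygotes had 47.5 and 38.2 FPKM in the knockout, against 87.7 and 46.1 in the control. At 48 h it had 32.6 and 30.7 FPKM in knockout embryos, against 15.5 and 13.6 in control embryos. Knockout and control libraries overlapped in zygotes, where control replicate 1 stood far above control replicate 2, and were apart in FGO and at 48 h. The protein-coding gene Rnf34 and the antisense transcript A930024E05Rik overlap Kdm2b on the opposite strand. In controls Kdm2b rose by 1.02 ± 0.27 from oocyte to zygote (limma adjusted p = 0.0123). It was then lower in control 2-cell embryos than in control zygotes by 2.06 (limma log2 change -2.06 ± 0.27, adjusted p = 3.5e-05). The 48 h difference of 1.08 ± 0.27 (limma adjusted p = 0.00421), or 0.64 above the all-gene median, lost its call when values were rescaled by median ratios (0.50, limma adjusted p = 0.104). The step from oocyte to zygote lost its call without control FGO replicate 2 (limma adjusted p = 0.0742) and without control zygote replicate 1 (limma adjusted p = 0.104). Without control zygote replicate 2, Kdm2b was lower in knockout zygotes by a log2 change of -1.03 (limma adjusted p = 0.0152), against -0.57 with all libraries (limma adjusted p = 0.138).

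Kdm4a is the family member known in mice as a maternal factor that keeps broad H3K4 trimethylation free of H3K9 trimethylation in oocytes. It had 0.768 and 0.273 FPKM in knockout FGO against 1.17 and 1.07 in control FGO, and 8.31 and 6.39 in knockout zygotes against 7.37 and 9.35 in control zygotes. At 48 h the values were 6.69 and 6.13 FPKM in knockout embryos and 5.96 and 4.74 in control embryos. The gene was therefore low in oocytes and several-fold higher in zygotes of either genotype. In controls it rose by 2.13 ± 0.27 from oocyte to zygote (limma adjusted p = 0.000172), the largest rise of the 10 genes at that step, and kept the call in all 17 alternatives run. No knockout effect passed the test, and the 95% intervals ran from -1.08 to 0.09 in FGO, from -0.75 to 0.42 in zygotes and from -0.36 to 0.81 at 48 h.

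Kdm2a, a CpG-island-binding H3K36 demethylase paralogous to Kdm2b, also rose from control oocytes to control zygotes, at a lower level. Its values were 0.473 and 0.479 FPKM in knockout FGO against 0.806 and 0.695 in control FGO, and 4.03 and 2.19 in knockout zygotes against 4.24 and 2.06 in control zygotes. Embryos at 48 h had 2.24 and 2.79 FPKM in the knockout and 1.45 and 1.61 in the control. The rise of 1.19 ± 0.30 from control oocytes to control zygotes (limma adjusted p = 0.00818) lost its call without control FGO replicate 2 (limma adjusted p = 0.0552) or control zygote replicate 1 (limma adjusted p = 0.0648). Control 2-cell embryos and control zygotes did not differ past the threshold (-0.66, limma adjusted p = 0.0611), whereas they did without control zygote replicate 2 (-1.05, limma adjusted p = 0.0101). No knockout effect on Kdm2a passed at these stages, with limma adjusted p of 0.66, 1 and 0.169.

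Kdm4b, a KDM4 paralogue of Kdm4a and Kdm4c, was low throughout this table, where it ran from 0.264 FPKM in control zygote replicate 2 to 1.79 in knockout zygote replicate 2. Zygotes had 0.784 and 1.79 FPKM in the knockout, about 12 and 27 fragments, against 0.476 and 0.264 in the control, about 7 and 4 fragments. The difference of 0.71 ± 0.29 did not pass (limma adjusted p = 0.0849), and it passed without knockout replicate 1 (1.03, limma adjusted p = 0.0351). No step between control stages passed for Kdm4b.

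Among the readers, Morf4l1 was the one that the knockout raised in both oocytes and zygotes. MORF4L1 (MRG15) binds methylated H3K36 through a chromodomain and serves in the NuA4/TIP60 acetyltransferase and SIN3B/PF1 deacetylase complexes. In FGO it had 8.13 and 9.42 FPKM in the knockout, against 3.36 and 2.91 in the control. In zygotes it had 21.3 and 17.0 FPKM in the knockout, against 11.7 and 7.46 in the control. At 48 h it had 12.1 and 17.8 FPKM in knockout embryos, against 22.0 and 21.6 in control embryos. The groups did not overlap at any of these stages, and the knockout was the higher at the first 2 and the lower at 48 h. The knockout effect was 1.24 ± 0.27 in FGO (limma adjusted p = 0.026), or 1.43 above the all-gene median, and 0.95 ± 0.27 in zygotes (limma adjusted p = 0.0222). The difference of -0.54 ± 0.27 at 48 h did not pass (limma adjusted p = 0.0945), whereas it did after median-ratio rescaling (-1.11, limma adjusted p = 0.00198), after quantile normalization (-0.80, limma adjusted p = 0.0182) and without knockout replicate 2 (-0.79, limma adjusted p = 0.0451). In controls Morf4l1 rose at both steps, by 1.33 ± 0.27 from oocyte to zygote (limma adjusted p = 0.00289) and by 1.13 ± 0.27 from zygote to 2-cell embryo (limma adjusted p = 0.00261). Leaving out any 1 of the 4 oocyte libraries ended the FGO call (limma adjusted p from 0.11 to 0.192). The zygote call was lost without control replicate 2 (0.65, limma adjusted p = 0.135), without knockout replicate 1 (0.79, limma adjusted p = 0.0885) and when the zygote libraries were fitted alone (limma adjusted p = 0.0764). In the Dnmt3l pair, also FGO, Morf4l1 had 20.2 FPKM in the library labelled knockout and 21.0 in the control. Both lie above the Setd2 knockout and control FGO values. The pair was normalized apart from these libraries, and this difference between sets of FGO was not tested. Morf4l1 has processed copies in the mouse genome, and how the authors' counting divides reads among them is not given in the sources used here.

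Zmynd11, whose protein binds trimethylated K36 on the histone variant H3.3 and restrains transcript elongation, was the member most reduced by the knockout in oocytes. It had 0.593 and 1.08 FPKM in knockout FGO, against 3.58 and 3.47 in control FGO. Its zygote values were 3.30 and 4.92 FPKM in the knockout, against 5.43 and 5.25 in the control. At 48 h it had 2.42 and 3.91 FPKM in knockout embryos, against 0.516 and 0.847 in control embryos. The knockout libraries were thus below the controls in oocytes and zygotes and above them at 48 h, with no overlap at any stage. The changes were -1.31 ± 0.28 in FGO (limma adjusted p = 0.023), -0.33 ± 0.28 in zygotes (limma adjusted p = 0.396) and 1.29 ± 0.28 at 48 h (limma adjusted p = 0.00138). The difference between the FGO and zygote effects was 0.98 ± 0.39 and did not pass (limma adjusted p = 0.145). None of the 10 genes passed that test by limma, where 9.39% of all genes passed. Of the 10, 3 had an unadjusted limma p under 0.05, as did 3035 of the 12199 genes tested. Control 2-cell embryos were below control zygotes by a log2 change of -1.92 ± 0.28 (limma adjusted p = 6.58e-05). The FGO call ended when any 1 of the 4 oocyte libraries was left out (limma adjusted p from 0.0658 to 0.201), and the 48 h call was kept in all 17 alternatives run. Antisense transcripts overlap Zmynd11, and reads of the 2 strands cannot be told apart where the counting does not use strand.

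Phf1 and Phf19 encode Tudor-domain cofactors that carry Polycomb repressive complex 2 (PRC2) to H3K36-methylated chromatin. Phf1 had 13.8 and 20.7 FPKM in knockout FGO, against 10.6 and 23.1 in control FGO. In zygotes Phf1 had 32.3 and 27.6 FPKM in the knockout, against 108.4 and 35.8 in the control. The 48 h values were 24.8 and 26.9 FPKM in knockout embryos, against 6.33 and 8.83 in control embryos. Its control libraries disagreed more than 2-fold within FGO and more than 3-fold within zygotes, while the 48 h groups were tight and apart. Phf1 rose in controls by 1.92 ± 0.47 from oocyte to zygote (limma adjusted p = 0.00749) and was lower in control 2-cell embryos than in control zygotes by a log2 change of -2.90 ± 0.47 (limma adjusted p = 0.000162). The knockout effect was 1.66 ± 0.47 at 48 h (limma adjusted p = 0.00766), and the -1.04 ± 0.47 in zygotes did not pass (limma adjusted p = 0.115). That zygote difference passed without control replicate 2 (-1.83, limma adjusted p = 0.0144) and under quantile normalization (-1.32, limma adjusted p = 0.0484). The 48 h call was lost without control replicate 1 when all genes were kept (1.45, limma adjusted p = 0.0806). The step from oocyte to zygote lost its call without control zygote replicate 1 (1.13, limma adjusted p = 0.0665) and without control FGO replicate 1 (1.40, limma adjusted p = 0.0754). Phf1 overlaps the protein-coding gene Cuta on the opposite strand, so part of its reads may belong to either gene.

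Phf19 was the lowest of the readers by group mean, and in these 12 libraries it reached 1 FPKM in control zygotes only. It had 0.525 and 0 FPKM in knockout zygotes, about 7 and 0 fragments, against 2.59 and 1.48 in control zygotes, about 33 and 17 fragments. FGO had 0.33 and 0.367 FPKM in the knockout, against 0.722 and 0.929 in the control, and the deeper control FGO libraries held about 63 and 33 fragments. At 48 h Phf19 was listed at 0.545 and 0 FPKM in knockout embryos and at 0 in both control libraries. The knockout zygotes were below both controls by a log2 change of -1.27 ± 0.27, and control 2-cell embryos were below control zygotes by -1.58 ± 0.27. Phf19 met the filter on low values only through the control zygotes, the high group of both comparisons, so these values are a description. With no such filter the limma adjusted p was 0.0182 for the knockout effect and 0.00134 for the control step. The knockout effect lost its call when the zygote libraries were fitted alone with all genes kept (limma adjusted p = 0.121) and, with all genes kept, without knockout replicate 2 (-0.97, limma adjusted p = 0.0504).

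Psip1 (LEDGF), whose PWWP domain reads H3K36 methylation and links it to MLL complexes and splicing, had the highest mean FPKM of the 10 genes in control FGO and control zygotes, though Kdm2b in control FGO replicate 1 and Phf1 in control zygote replicate 1 stood above it. Oocytes had 27.2 and 30.9 FPKM in the knockout, against 31.5 and 31.7 in the control. Zygotes had 67.6 and 47.5 FPKM in the knockout, against 102 and 65.8 in the control. At 48 h it had 53.6 and 56.3 FPKM in knockout embryos, against 38.0 and 34.7 in control embryos. The zygote groups overlapped and the 48 h groups did not. The zygote change of -0.52 did not pass (limma adjusted p = 0.124), and it passed without control replicate 2 (-0.84, limma adjusted p = 0.0411) and without knockout replicate 1 (-0.77, limma adjusted p = 0.0459). Psip1 rose in controls by 1.35 ± 0.24 from oocyte to zygote (limma adjusted p = 0.00149) and was lower in control 2-cell embryos than in control zygotes by a log2 change of -1.15 ± 0.24 (limma adjusted p = 0.00112). The 48 h knockout effect of 0.58 ± 0.24 was just past the threshold (limma adjusted p = 0.048), stood 0.15 above the all-gene median, and was -0.0052 after median-ratio rescaling (limma adjusted p = 0.988). It was also lost without any 1 of the 4 libraries at 48 h (limma adjusted p from 0.0979 to 0.176), under quantile normalization, with no filter and with no variance trend (limma adjusted p from 0.0564 to 0.202). Psip1 overlaps Snapc3 on the opposite strand.

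Of the 10 genes, 3 carry the letters of the cytoplasmic polyadenylation element near the 3′ end of the transcript. They are shown because Smart-seq2 primes on poly(A) tails, and this element is known to govern tail length of stored messages in eggs. TTTTAT or TTTTAAT was sought in the last 100 bases of the longest coding transcript, and 16.6% of 21810 genes hold it there. In the windows that follow, with the element in capitals, it lies 74 bases from the end in Morf4l1, 26 in Psip1 and 52 in Phf19.
Morf4l1: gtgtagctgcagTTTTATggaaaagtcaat
Psip1: atgtgtaaattgTTTTAATtaaagtttttt
Phf19: ttaaattgctgcTTTTAATaatatttgtta
The other 7 transcripts do not hold these letters in that window. Of the 6 genes that rose from control oocyte to control zygote, Morf4l1 and Psip1 hold them, and Kdm2a, Kdm2b, Kdm4a and Phf1 do not. For Kdm2a and Kdm2b the annotated end has no poly(A) signal (AATAAA or ATTAAA) close by, so absence there is less informative. A link between the letters and the rise was not tested. Tail length and RNA amount cannot be told apart in these libraries. In bulk samples a change in RNA per cell and a change in the mix of cells cannot be told apart either.

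**Figure D3:**
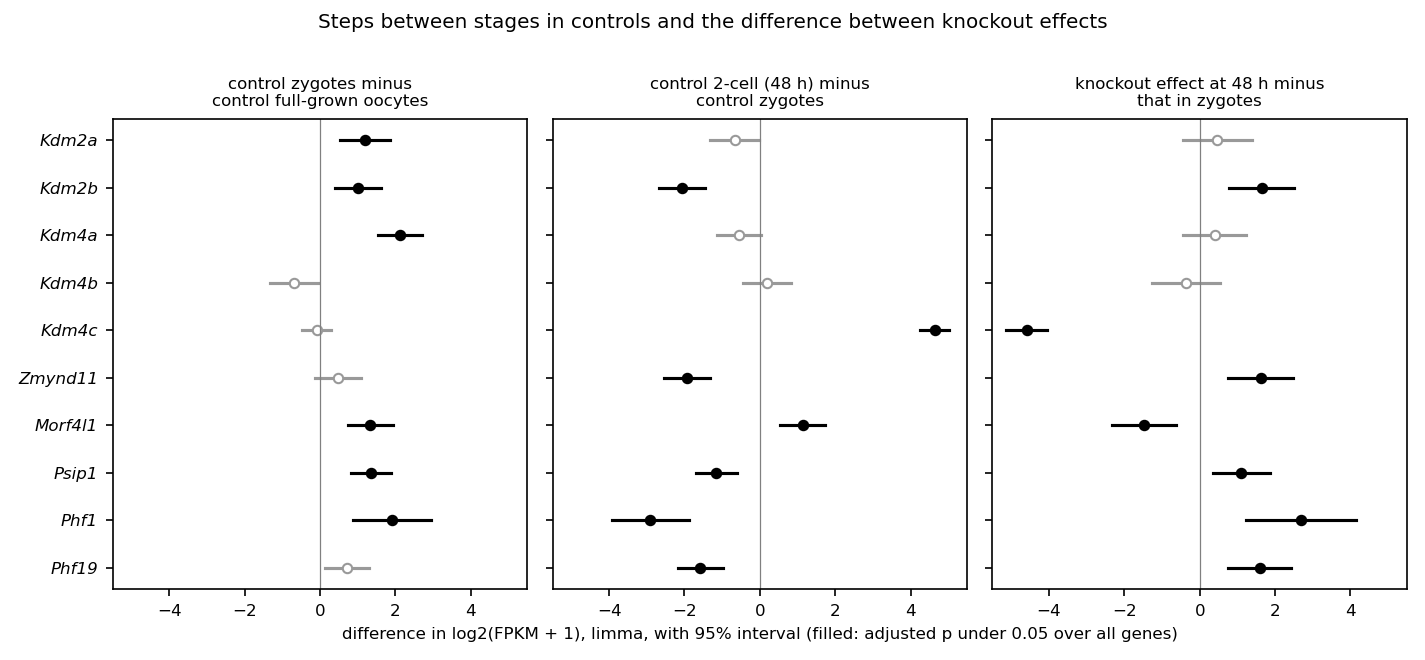
Difference in log2(FPKM + 1) with the 95% interval from limma for the step from control oocytes to control zygotes, the step from control zygotes to control 2-cell embryos, and the knockout effect at 48 h minus that in zygotes. Filled points passed an adjusted p of 0.05 over all genes, and Kdm4c and Morf4l1 lie on the other side of 0 from the remaining filled points in both of the panels that involve 48 h embryos.

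The knockout effect at 48 h differed from that in zygotes for 7 of the 10 genes, where 66.2% of all genes were called, 36.7% as higher and 29.5% as lower, and the median of all genes was 0.36. The differences were positive for Phf1 (2.70 ± 0.66), Kdm2b (1.64 ± 0.39), Zmynd11 (1.62 ± 0.39), Phf19 (1.59 ± 0.38) and Psip1 (1.11 ± 0.34), and negative for Kdm4c (-4.59 ± 0.24) and Morf4l1 (-1.48 ± 0.38). The limma adjusted p of the 5 genes other than Kdm4c and Phf19 ran up to 0.0145 for Psip1. The difference for Psip1 lost its call after median-ratio rescaling (0.53, limma adjusted p = 0.184) and without control zygote replicate 1 (0.79, limma adjusted p = 0.0603). Kdm4c and Phf19 met the filter on low values only through a control group of this test. The control step from zygote to 2-cell embryo shares all 4 control libraries with it. In the knockout, levels at 48 h overlapped those in zygotes for Kdm2a, Kdm4a, Kdm4b, Kdm4c, Zmynd11, Morf4l1, Psip1 and Phf19, and lay below them for Kdm2b and Phf1. Over all genes tested, 32.1% did not overlap between these groups. Oocyte markers summed to 10617 and 12106 FPKM in the 2 knockout libraries at 48 h, against 5590 and 5845 in the controls (lower library first). Of 6 markers of 2-cell activation, 3 were in the table, and their sum was 5.38 and 29.0 FPKM in the knockout, against 73.7 and 95.2 in the controls. The part of stage and of these stored messages in the result was not tested.

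Somatic cells that surround oocytes were checked with 12 granulosa and cumulus markers. Their sum, given as the lower and the higher of 2 libraries, was 36.2 and 41.1 FPKM in knockout FGO, against 36.4 and 39.1 in control FGO, with 3 of 12 and 4 of 12 reaching a mean of 1 FPKM. Single markers moved in both directions in FGO: Inha had 0.816 and 0.519 FPKM in the knockout against 14.8 and 15.1 in the control, and Fshr had 9.49 and 8.25 in the knockout against 0.415 and 0.18 in the control. Amh, Amhr2, Foxl2 and Ptx3 were at 0 in knockout FGO, and Ptx3 was at 0 in control FGO. Zygotes had 29.1 and 31.2 FPKM in the knockout against 18.1 and 24.6 in the control, and at 48 h the sum was 27.5 and 30.7 in the knockout against 68.6 and 71.2 in the control. Their part in the changes of Morf4l1, Zmynd11 and Phf19 was not tested.

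P7 growing oocytes showed no call among the 9 of these genes that could be tested, Kdm4a being too low, and 0.0834% of 10794 genes were called. None of the 9 reached an unadjusted limma p of 0.05, which 868 of the 10794 genes did. For 6 of 9 the groups did not overlap, as was the case for 37.4% of all genes. Kdm4c had 4.23 and 7.20 FPKM in oocytes labelled Setd2-/-, against 2.92 and 3.28 in those labelled Setd2+/-, a difference of 0.68 with a 95% interval from -0.22 to 1.57 (limma adjusted p = 0.737). Phf19 had 0.881 and 0.384 FPKM in Setd2-/- oocytes, against 2.30 and 1.38 in Setd2+/- oocytes, a difference of -0.80 with an interval from -1.91 to 0.32 (limma adjusted p = 0.753); it met the filter through the Setd2+/- libraries only. Morf4l1 had 38.6 and 43.6 FPKM in Setd2-/- oocytes against 37.2 and 36.7 in Setd2+/- oocytes (0.15, limma adjusted p = 0.923), and Zmynd11 had 12.1 and 13.7 in Setd2-/- oocytes against 13.6 and 13.6 in Setd2+/- oocytes (-0.07, limma adjusted p = 0.975). Kdm4b, at 10.05 and 10.5 FPKM in Setd2-/- oocytes and 12.2 and 11.6 in Setd2+/- oocytes, was far above its level in FGO. Kdm2b had 11.3 and 7.28 FPKM in Setd2-/- oocytes against 12.03 and 11.2 in Setd2+/- oocytes, and Kdm2a had 2.49 and 2.86 against 4.06 and 2.48 in the same order of labels. Psip1, at 20.2 and 16.1 FPKM in Setd2-/- oocytes and 13.9 and 15.1 in Setd2+/- oocytes, and Phf1, at 17.7 and 23.1 and at 26.8 and 25.9, lay between Kdm2b and Morf4l1. Kdm4a, with 0.941 and 1.07 FPKM in Setd2-/- oocytes and 0.1 and 0.584 in Setd2+/- oocytes, was the lowest of the demethylases. These tables were normalized apart, so levels are set side by side without a test.

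Spindle-transfer embryos showed no call in 6 genes tested, where 0% of 9398 genes were called by limma and 1243 had an unadjusted p under 0.05. Kdm2a, Zmynd11, Phf1 and Phf19 were too low to test, and Phf19 was listed at 0 in all 4 libraries. Psip1 had 1.47 and 0.944 FPKM in embryos labelled Setd2-/-, against 3.26 and 4.20 in those labelled Setd2+/-, a difference of -1.103 ± 0.38 that did not pass (limma adjusted p = 0.318; unadjusted p of the limma test 0.0222). Kdm4c had 11.04 and 14.01 FPKM in Setd2-/- embryos against 12.04 and 12.29 in Setd2+/- embryos, and the interval of the difference ran from -0.65 to 0.71. Morf4l1 had 59.5 and 64.3 FPKM in Setd2-/- embryos against 80.5 and 72.3 in Setd2+/- embryos (-0.30, limma adjusted p = 0.546), and Kdm2b had 40.6 and 45.5 against 46.3 and 47.3 in the same order of labels (-0.12, limma adjusted p = 0.847). Kdm4a had 0.879 and 1.91 FPKM in Setd2-/- embryos against 1.42 and 0.783 in Setd2+/- embryos, and Kdm4b, which met the filter through the Setd2+/- libraries only, had 0.964 and 0.604 against 2.39 and 1.38. The untested genes reached at most 1.44 FPKM, with Zmynd11 at 0.407 and 0.454 in Setd2-/- embryos against 0.698 and 1.44 in Setd2+/- embryos, Kdm2a at 1.18 and 0.733 against 0.705 and 0.821, and Phf1 at 0.537 and 0.997 against 0.373 and 0.496. For 4 of the 6 tested genes the groups did not overlap, against 46.1% of all genes. Kdm4c was thus expressed in 8-cell embryos of both labels, and Psip1 and Phf1 were far below their FPKM at the earlier stages.

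**Figure D4:**
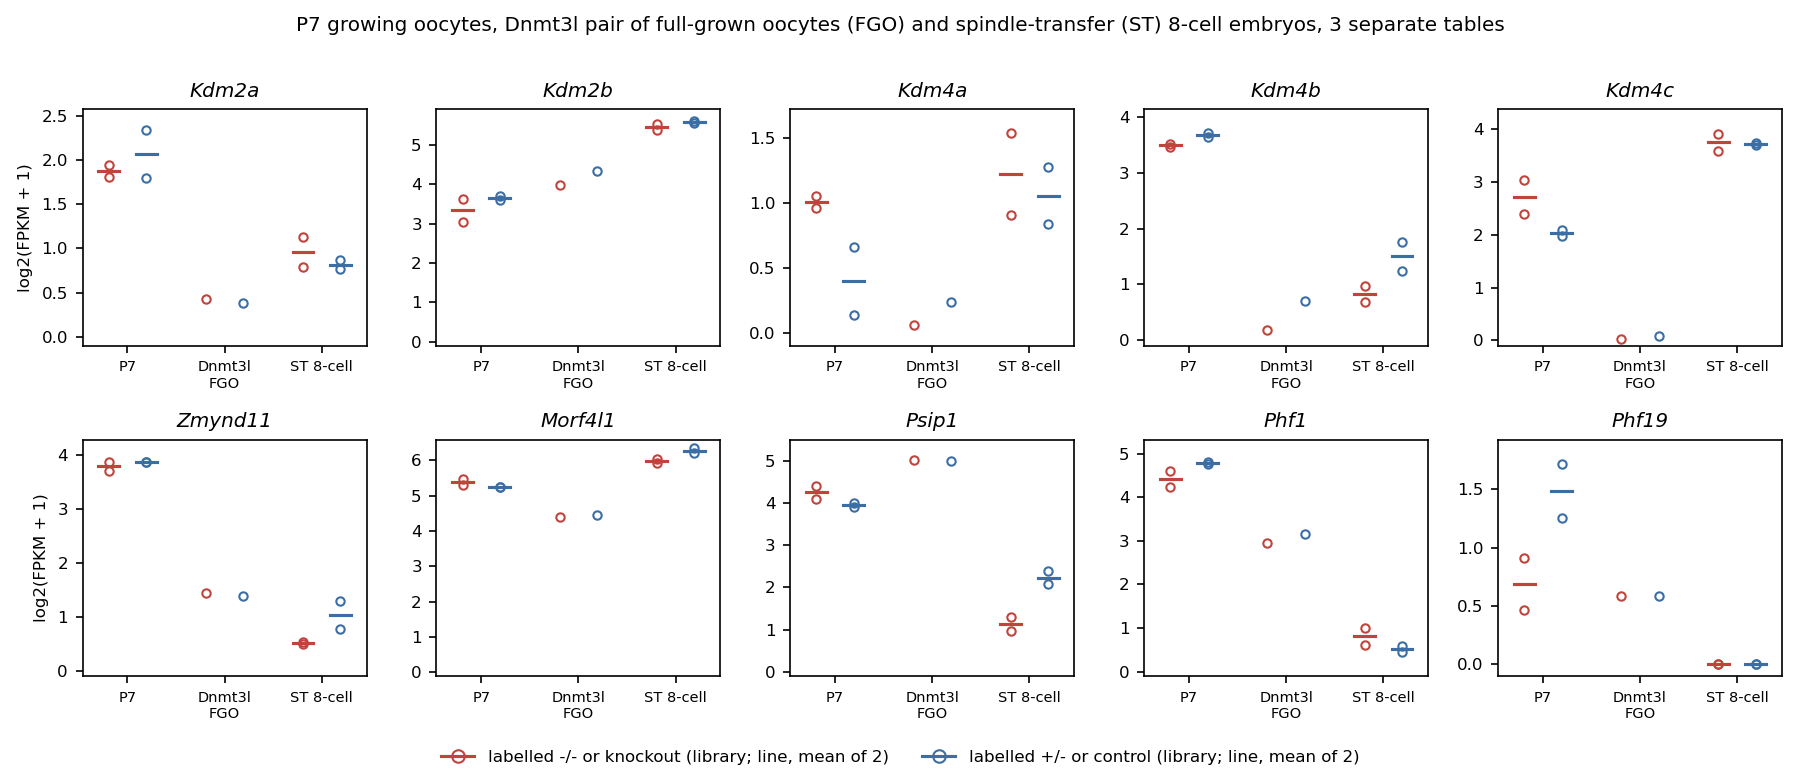
Level of each gene as log2(FPKM + 1) in P7 growing oocytes, the Dnmt3l pair of full-grown oocytes and spindle-transfer 8-cell embryos, with a circle for each library and a line for the mean where there are 2. The 3 tables were normalized apart, and Psip1 has both -/- libraries of spindle-transfer embryos below both +/- libraries.

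In the Dnmt3l pair none of the 10 genes differed 2-fold on the log2(FPKM + 1) scale, and 1.95% of 9708 genes did. Kdm2b had 14.8 FPKM in the library labelled Dnmt3l_KO and 19.1 in the control library. Kdm4b had 0.142 FPKM, about 7 fragments, against 0.628, about 24 fragments, a difference of -0.51. Morf4l1 had 20.2 FPKM in the library labelled knockout and 21.0 in the control, and Psip1 had 31.3 and 30.8. Zmynd11 stood at 1.70 and 1.61 FPKM and Phf1 at 6.76 and 7.86, in the same order of libraries. Kdm2a (0.341 and 0.301 FPKM), Kdm4a (0.0404 and 0.18), Kdm4c (0.0246 and 0.0555) and Phf19 (0.504 and 0.5) were low in both libraries, the one labelled knockout given first. Both libraries being single, these differences have no replicate check.

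The complexes in which these proteins work were followed through lists of partners, whose counts stand beside 6.92% of all genes called in FGO, 31.6% in zygotes and 73.8% at 48 h. Among 7 writers of H3K36 methylation, 1 was lower in knockout FGO, 1 was higher and 3 lower in knockout zygotes, and 3 were higher and 2 lower in the knockout at 48 h. Apart from Setd2 the writers with the smallest adjusted p in zygotes were Nsd1, which averaged 7.26 ± 1.53 FPKM in the knockout and 16.6 ± 0.764 in the control (-1.105, limma adjusted p = 0.00478), and Setmar, at 12.3 ± 4.61 and 4.32 ± 0.295 (1.28, limma adjusted p = 0.0257). The H3K36 demethylase NO66, listed as 2410016O06Rik (Riox1 in RefSeq), had 0.0901 ± 0.127 FPKM in the knockout at 48 h and 20.0 ± 0.92 in the control. It met the filter on low values only through the control 2-cell libraries, so no test is given. It was 1 of 2 further demethylases tested, of 3 listed, and the other did not pass at any of the 3 stages. The writers' median change was -0.50 in FGO, -0.55 in zygotes and 0.16 at 48 h, against -0.19, 0.01 and 0.43 for all genes. Kdm8, the other demethylase tested, changed by -0.40, 0.34 and 0.18 at these stages, and no median is given for the 2.

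Partners of Phf1 and Phf19 in PRC2 showed 0 calls of 9 tested in FGO, 2 lower of 9 in zygotes, and 4 higher and 3 lower of 9 at 48 h, where 6.92%, 31.6% and 73.8% of all genes were called. Suz12, a core subunit, averaged 17.4 ± 2.51 FPKM in knockout zygotes and 65.2 ± 29.3 in control zygotes (-1.78, limma adjusted p = 0.00209), and Ezh2, the catalytic subunit, 86.9 ± 8.19 and 177.6 ± 41.3 (-1.01, limma adjusted p = 0.0075). At 48 h Mtf2, another Tudor cofactor, averaged 27.4 ± 4.96 FPKM in the knockout and 213.5 ± 5.25 in the control (-2.93, limma adjusted p = 2.51e-07), the opposite direction to Phf1. The list's median was 0.07 in FGO, -0.11 in zygotes and 0.08 at 48 h.

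Partners of Kdm2b in its Polycomb repressive complex (PRC1 with PCGF1 and BCOR) showed 0 calls of 8 tested in FGO, 2 higher in zygotes and 3 higher at 48 h, with list medians of 0.02, 0.15 and -0.05 against -0.19, 0.01 and 0.43 for all genes. In zygotes the E3 ligase Rnf2 averaged 105 ± 21.1 FPKM in the knockout and 57.8 ± 1.88 in the control (0.84, limma adjusted p = 0.0159), and Bcor 1.76 ± 0.203 and 0.549 ± 0.29 (0.84, limma adjusted p = 0.0233). At 48 h Skp1a averaged 1502 ± 0.827 FPKM in the knockout and 203 ± 4.85 in the control (2.88, limma adjusted p = 7.38e-07).

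Partners of Morf4l1 in NuA4/TIP60 showed 0 calls of 17 in FGO, 4 higher and 2 lower in zygotes, and 8 higher and 4 lower at 48 h, again beside 6.92%, 31.6% and 73.8% of all genes. In zygotes Dmap1 averaged 68.6 ± 25.9 FPKM in the knockout and 12.6 ± 3.1 in the control (2.32, limma adjusted p = 0.000326), and the acetyltransferase Kat5 1.79 ± 0.119 and 5.74 ± 1.98 (-1.24, limma adjusted p = 0.00708). Of the 9 SIN3B/PF1 partners, 0 were called in FGO, 1 was lower in zygotes, and 4 were higher and 3 lower at 48 h. Hdac1, a deacetylase, averaged 0.163 ± 0.0789 FPKM in the knockout at 48 h and 52.4 ± 0.647 in the control, and the demethylase Kdm5a 0.317 ± 0.0195 and 13.2 ± 0.185. Both are among the 3 lower and met the filter on low values only through the control 2-cell libraries, so no test is given. The NuA4/TIP60 medians were -0.30, 0.27 and 0.44 at the 3 stages, and the SIN3B/PF1 medians -0.30, 0.06 and 0.47.

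Other readers of H3K36 methylation showed 1 lower of 12 tested in FGO, 2 higher and 3 lower in zygotes, and 6 higher and 6 lower at 48 h, with list medians of 0.00, -0.26 and -0.04. Mum1, a PWWP protein, averaged 4.69 ± 2.22 FPKM in knockout FGO and 13.4 ± 4.47 in control FGO (-1.36, limma adjusted p = 0.0419). In zygotes the de novo DNA methyltransferases moved apart, with Dnmt3a at 14.4 ± 1.05 FPKM in the knockout and 30.8 ± 12.3 in the control (-0.99, limma adjusted p = 0.0187) and Dnmt3b at 14.6 ± 4.5 in the knockout and 5.79 ± 2.08 in the control (1.20, limma adjusted p = 0.0194). In P7 oocytes and ST embryos 0 of the 64 and 63 list entries tested were called by limma, and 3 and 7 had an unadjusted p under 0.05. Over all genes 868 of 10794 and 1243 of 9398 had such an unadjusted p. In FGO 2 of 64 entries were called and 17 had an unadjusted p under 0.05. Over all genes in FGO 6.92% were called and 3014 of 12199 had such an unadjusted p.

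Genes with the most similar course over the 12 libraries were sought for the 4 members with the widest range of group means, among 6531 genes whose mean reached 5 FPKM. The nearest to Kdm4c were Ifi35, Bhmt and Cst7 (Pearson r of 0.9997 for each), which were at or near 0 in the 10 other libraries and averaged 153.5, 35.5 and 63.1 FPKM in control 2-cell embryos. Among the nearest to Phf1 were Fam84b and Nap1l4 (r = 0.964 and 0.963), and nearest to Kdm4a were Fam178a, Sgol2 and Thrap3 (r = 0.986, 0.982 and 0.975). Morf4l1 was nearest to Twistnb, Zdhhc20 and Smndc1 (r = 0.950, 0.948 and 0.941). These correlations describe libraries that share stage and depth. Kdm4c reached 1 FPKM in the 2 control 2-cell libraries only, so its r is high with any gene confined to them.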

How the data were processed

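Smart-seq2 RNA-seq was measured in 22 libraries. The authors deposited FPKM values, and TopHat2 (2.0.11), Cufflinks (2.0.2) and the mm9 build appear, without roles, per the submitters' processing notes. Whether counting used strand is not given in the sources used here. Libraries were grouped by title and genotype label, and 0 other value columns were left unused. The genes and lists were chosen with earlier results of these data known.

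Values were taken as log2(FPKM + 1), so a fold change understates changes of low genes. A gene entered a table's test when 2 or more of its libraries reached 1 FPKM. The test was limma 3.58.1 in R 4.3.3 (moderated variance with a trend on the mean). P-values were two-sided and adjusted by Benjamini-Hochberg over all genes of a comparison, with a threshold of 0.05. FGO, zygote and 48 h libraries were fitted as 12 libraries in 1 model, and P7 and ST tables apart. The Dnmt3l columns are named as merged and were not tested. Library scaling was left as deposited. Depth was estimated from the fragments that low FPKM values of single-transcript genes imply, with lengths from GENCODE vM21 (GRCm38). It is approximate, and intervals from limma cover the spread between libraries only.

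All 10 genes are described in every comparison. For each list, up to 3 called members with the smallest adjusted p could be named. Likeness was sought for the 4 genes with the widest range of group means, each with 3 genes, leaving out the 10 genes themselves and provisional symbols. Of the genes so found, 1 is not reported here. The fit was tested on simulated data with the residual spread of each table. It recovered 95.2% of 4-fold and 38.7% of 2-fold changes in FGO, 98.4% and 38.5% in zygotes and 97.0% and 30.6% at 48 h, each over 12199 genes. Of the simulated calls 5.03%, 7.36% and 4.91% were false at these stages. For the difference between the 48 h and zygote effects it recovered 71.2% of 4-fold and 8.45% of 2-fold changes, with 2.54% of calls false. In the P7 table, of 10794 genes, 98.6% and 66.7% were recovered and 4.32% of calls were false, and in the ST table, of 9398 genes, 96.3% and 43.1% were recovered and 7.1% were false. Replicate numbers were not used as pairs, and over all genes the correlations of deviations ran from 0.0024 to 0.186. Among these genes at 5 FPKM, replicate 1 was the higher for 5 of 5 in knockout zygotes and 5 of 6 in control zygotes. The all-gene median log2 ratios of replicate 1 to replicate 2 were -0.11 and 0.02 there. In FGO replicate 1 was the higher for 0 of 4 in the knockout and 1 of 3 in the control. Alternatives were another pseudocount, filter, variance model or scaling, a replicate block (centred within each stage), groups fitted alone, and leaving out each library.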

Additional observations from a re-analysis of the deposited data

Results flagged for a closer look

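For 7 of the 10 genes the knockout effect at 48 h differed from the knockout effect in zygotes, tested as a difference of differences with limma in log2(FPKM + 1). Over all 12199 genes tested, 66.2% were called in this test, so the count lies near that share. The difference was -4.59 for Kdm4c, 2.70 for Phf1, 1.64 for Kdm2b, 1.62 for Zmynd11, 1.59 for Phf19, 1.11 for Psip1 and -1.48 for Morf4l1. At 48 h the knockout libraries are titled 1-cell and the controls 2-cell, so a difference in cell stage lies within each of these values. The value for Psip1 fell to 0.53 after median-ratio rescaling (limma adjusted p = 0.184) and to 0.79 without control zygote replicate 1 (limma adjusted p = 0.0603). Kdm4c and Phf19 met the filter on low values only through control 2-cell embryos and control zygotes. The median of all genes was 0.36 in the same test.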

How the results depend on the processing

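The replicate block gave 2 called genes in FGO, 2 in zygotes, 5 at 48 h, 7 for control zygotes against control FGO and 8 for control 2-cell embryos against control zygotes, where the unblocked fits gave 2, 2, 5, 6 and 7. The added calls were Phf19 at the first control step and Kdm2a at the second, with unmoved changes of 0.71 and -0.66 (limma adjusted p = 0.0276 and 0.0209). Phf19 met the filter on low values only through control zygotes, the higher group of that step, so its added call is a description. With no such filter and no block its limma adjusted p there was 0.101. For the comparisons named, the share of all genes called under the block is not given here, so both added calls are a description. The block changed no other count of these genes. It called 129 of all P7 genes against 9 and 15 of all ST genes against 0. Median-ratio rescaling turned the 48 h change of Psip1 to -0.0052, and the 48 h calls became 2 higher and 2 lower, against 4 and 1, with Kdm2b and Psip1 lost and Morf4l1 gained. Over all genes it moved the FGO calls to 439 higher and 262 lower, against 247 and 597, and the 48 h calls to 4354 and 4619, against 5270 and 3727. Quantile normalization gave 370 higher and 260 lower in FGO and 2024 and 2212 in zygotes, against 2255 and 1595.

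In zygotes 1 gene was called under a filter of 5 FPKM and 1 when the groups were fitted alone. Fits on fewer libraries apply the filter on low values to the libraries left. This was chosen after seeing the data, in place of keeping every gene tested in the whole table, and both are given. With all genes kept, fitting the groups alone called 0 of the 10 genes in zygotes (2 at an unadjusted limma p under 0.05) and 3 for control zygotes against control FGO. A pseudocount of 0.1 put 1 gene past 2-fold in the Dnmt3l pair, against 0.

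Leaving out 1 library gave 0 called genes in FGO in each of 4 fits (2 or 3 at an unadjusted limma p under 0.05), 1 to 3 in zygotes (1 to 4 with all genes kept), 3 to 5 at 48 h, 3 to 6 for control zygotes against control FGO (3 to 7), 6 to 7 for control 2-cell embryos against control zygotes (7 to 8) and 5 to 7 for the difference between the 48 h and zygote effects. For these fits, and those with another filter or with groups fitted alone, the share of all genes called is not given here. The counts are therefore a description. The cause of these moves was not tested. At these depths 1 fragment is worth more of the FPKM in zygotes than in FGO, which limits Phf19, Kdm4b and Kdm4c there.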
